A study of Homo sapiens with 9 samples.

Results

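The 9 genes described here encode the enzymes that build long-chain fatty acids from acetyl-CoA and then lengthen and desaturate them: ACLY, ACSS2, ACACA, FASN, ELOVL6, ELOVL5, SCD, FADS2 and FADS1. They were taken by name from the pathway. All 9 were present among the 58381 gene entries with an Ensembl identifier, and all 9 were among the 13777 genes tested, which are those with at least 1 FPKM (fragments per kilobase of transcript, scaled to the fragment total of the library) in at least 3 of 9 libraries. The libraries came from HK1, an established human nasopharyngeal carcinoma cell line. Cells had been transfected for 48 h with 100 nM of a non-targeting control siRNA (3 libraries), of an siRNA against E2F1 (3 libraries) or of an siRNA against E2F3 (3 libraries), with no other agent named in the labels. E2F1 and E2F3 are transcription factors best known for driving genes of DNA replication and cell division, and the design asks what RNA changes when each is depleted. It is a transient depletion in a single cell line, only RNA was measured, and whether replicate libraries stem from separately grown cells is not stated.

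In the cytosol, ACLY splits citrate exported from mitochondria into acetyl-CoA, and ACSS2 makes acetyl-CoA from acetate. ACACA carboxylates acetyl-CoA to malonyl-CoA, the committed step, and FASN joins these units into palmitate. ELOVL6 lengthens palmitate to stearate, SCD puts the first double bond into saturated chains, and FADS2, ELOVL5 and FADS1 act in turn on polyunsaturated chains. Transcription of these genes is known to be driven by SREBP-1, the product of SREBF1. SREBP-1 and its relative SREBP-2 are held in the endoplasmic reticulum by INSIG proteins and escorted to the Golgi for activation by SCAP. Many carcinoma lines make fatty acids in this way even when lipid is available from serum.

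Promoter sequences are shown for 3 of the genes that fell together after E2F3 siRNA, and for ACACA, which holds a match to an E2F motif. RefSeq promoter windows (GRCh38.p14, 250 bases before to 50 after each start) were found for 8 of the 9 genes, in 13 windows. None was available for FASN. The CCAAT box, the letters bound by the factor NF-Y, was found on either strand in at least 1 window of 6 genes (ACACA, ACLY, ACSS2, ELOVL5, FADS2 and SCD). It was present in 34.6% of all 35116 windows of this length and in 61.5% of the 13. SCD and ACLY, which are shown, each held a pair of them within 70 bases, and ACSS2 held 1. ELOVL5 and ACACA, called in no comparison, also held pairs within 70 bases. Among the genes that fell after E2F3 siRNA but are not shown, FADS1 held no CCAAT box. FADS2 held 1, after the start, in 1 of its windows, and FASN had no window. In the lines for SCD (chr10:100346993-100347062, plus strand), ACLY (chr17:41919033-41919102, minus strand) and ACSS2 (chr20:34874844-34874888, plus strand), capitals mark CCAAT or its reverse complement ATTGG.
SCD: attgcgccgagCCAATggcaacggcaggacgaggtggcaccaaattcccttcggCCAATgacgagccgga
ACLY: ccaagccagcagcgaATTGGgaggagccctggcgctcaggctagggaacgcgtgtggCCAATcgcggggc
ACSS2: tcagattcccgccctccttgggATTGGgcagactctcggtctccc
A match to the E2F motif (TTT, then CC, CG, GC or GG, then CGC, on either strand) was found in 1 of the 13 windows, at the most upstream ACACA start, and in 3.32% of all windows. In the line for ACACA (chr17:37406913-37406938, minus strand), capitals mark that match, read on the opposite strand.
ACACA: cccctaatccGCGCCAAAgagccgcc
The E-box CACGTG was found in 1 of the 13 windows, that of ELOVL5, and in 7.26% of all. The sterol element TCACNCCAC was found in none of the 13 windows and in 1.13% of all. With so low a share over all windows, its absence from 13 says little about these genes, and FASN was not among them. The GC box GGGCGG was found for 7 of the 8 genes, in 76.9% of their 13 windows and in 44.95% of all windows. These are matches of letters in a short window, some windows of a gene overlap, and binding was not measured.

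Both siRNAs lowered the RNA they target. E2F1 was at 19.86 ± 0.335 FPKM (SD, n = 3) in control and at 7.48 ± 0.412 after E2F1 siRNA (log2 difference -1.30, limma adjusted p = 3.71e-07). E2F3 was at 25.4 ± 1.5 FPKM in control and at 11.4 ± 1.09 after E2F3 siRNA (log2 difference -1.10, limma adjusted p = 3.58e-06). The other factor was not called in either case, though each of its libraries lay above every control library. The log2 difference was 0.17 for E2F3 after E2F1 siRNA (limma adjusted p = 0.0906). It was 0.12 for E2F1 after E2F3 siRNA (adjusted p = 0.138). Under 17 alternative settings, E2F3 was called higher in 2 (lowest adjusted p = 0.0459). E2F1 was called higher in 1, the GC content and length correction (0.22, adjusted p = 0.00555). If the smallest step between low FPKM values stands for 1 fragment, depth was about 18800000 to 26400000 fragments per library. The 10 epithelial markers were all detected. Their summed level was 2816 to 2850 FPKM in control, 2000 to 2117 with the E2F1 siRNA and 1894 to 2001 with the E2F3 siRNA. Under each siRNA 8 of the 10 genes were called lower, against 17.3% (E2F1 siRNA) and 16.4% (E2F3 siRNA) of all genes tested. Keratins held most of the sum, KRT8 alone 842.58 to 845.72 FPKM in control. EPCAM was called under neither siRNA and was higher after E2F1 siRNA at an unadjusted p under 0.05 (limma). KRT19 was not called after E2F1 siRNA, nor CDH1 after E2F3 siRNA. Markers of cell types rich in lipid synthesis were near 0: 7 of 8 adipocyte markers stayed below 1 FPKM with ADIPOQ and CIDEA at 0 in all 9 libraries, and the 8 hepatocyte markers summed to 0.73 to 1.64 FPKM with APOB and TTR at 0. Fibroblast markers summed to 14.2 to 21.0 FPKM, leukocyte markers to 18.1 to 27.8 and endothelial markers to 0.64 to 2.05. Most of the fibroblast sum was COL1A1 (12.34 to 18.73 FPKM) and most of the leukocyte sum CD68 (16.79 to 19.72). LYZ was at 7.49 FPKM in control replicate 3, against 0.73 and 1.0 in control replicates 1 and 2. The part of the fall of these epithelial markers in the results below was not tested.

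In control cells the 9 genes spanned the range from moderately to very highly expressed. SCD stood first at 181.1 ± 5.32 FPKM (SD, n = 3) and ACLY second at 163.1 ± 1.88, at the 96.2 and 95.7 percentiles of the genes tested. FASN (95.2 ± 4.74) and FADS1 (93.3 ± 3.99) came next, and their library values overlapped. ELOVL5 followed at 58.9 ± 1.78 and ACACA at 32.9 ± 2.68. ELOVL6 (25.8 ± 3.24) and ACSS2 (23.7 ± 1.51) overlapped, and FADS2 was lowest at 15.5 ± 2.0, at the 55.2 percentile. These levels are per length, so they were ordered between genes, and the order rests on the gene lengths behind the deposited values. Within each pair of enzymes for a like step the members differed widely in FPKM: ACLY lay 6.89 ± 0.535 times above ACSS2, and FADS1 6.09 ± 0.940 times above FADS2.

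**Figure D1:**
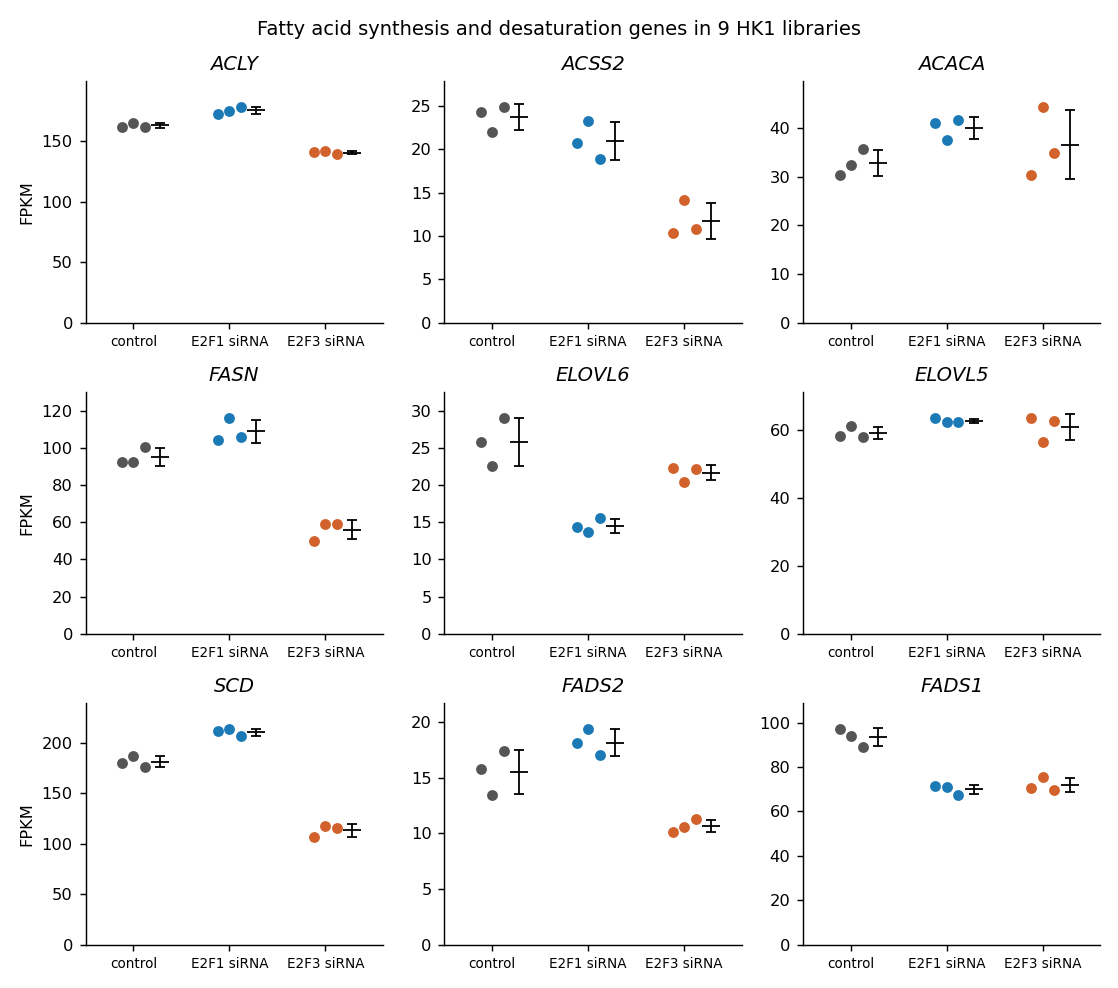
FPKM (vertical axes, from 0) of the 9 genes in each of 9 HK1 libraries, as points, with the mean and SD of the 3 libraries of each group as black bars to the right. ACLY, FASN, SCD and FADS2 were lowest after E2F3 siRNA and highest after E2F1 siRNA by mean, ACSS2 was lowest after E2F3 siRNA, ELOVL6 was lowest after E2F1 siRNA, FADS1 was lower after both, and ELOVL5 stayed between 56.29 and 63.42 FPKM.

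After E2F3 siRNA the pathway was lower at most of its steps. Of the 9 genes, 6 fell (limma, Benjamini-Hochberg adjusted p under 0.05 over all genes): ACSS2, FASN, SCD, FADS2, FADS1 and ACLY, by log2 differences of -0.97 to -0.21. None rose, and none was higher at an unadjusted p under 0.05 either (0 of 9). Over all genes tested 16.4% were called lower and 21.1% higher in this comparison. In 7 of the 9 genes (those 6 and ELOVL6) every E2F3 siRNA library lay below every control library, against 21.0% of all genes, and in 0 of the 9 every one lay above, against 28.6%. The median log2 difference was -0.37 for the 9 genes and 0.042 for all genes tested. In bulk RNA, fewer cells expressing a gene and less of its RNA per cell cannot be told apart. The split of calls over all genes (2913 higher, 2266 lower) turned to 2258 higher and 2792 lower with relative log expression scaling, under which the same 6 genes stayed called lower and ELOVL6 joined them.

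After E2F1 siRNA the genes moved in both directions. SCD and ACLY rose, and ELOVL6 and FADS1 fell. That is 2 of 9 called higher, against 20.5% of all genes, and 2 of 9 called lower, against 17.3%. Both counts were near the share over all genes. The count called higher depended on the setting: it was 4 of 9 without E2F3 siRNA replicate 1 and in a fit of only the 6 libraries compared, and 1 of 9 with relative log expression or upper-quartile scaling and without control replicate 1, E2F1 siRNA replicate 2 or E2F1 siRNA replicate 3, while the count called lower stayed at 2. In 5 genes (FASN, ACACA, ACLY, SCD and ELOVL5) every E2F1 siRNA library lay above every control library, against 27.7% of all genes, and in 2 every one lay below, against 22.6%. Median log2 differences were 0.10 for the 9 genes and 0.028 for all genes tested.

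Set directly against each other, the E2F3 siRNA libraries were lower than the E2F1 siRNA libraries in FASN, SCD, ACSS2, FADS2 and ACLY and higher in ELOVL6. Calls lower covered 5 of 9 genes, against 22.0% of all genes, and calls higher 1 of 9, against 23.5%. Over all genes the split of 3237 higher and 3037 lower turned to 2848 and 3455 with relative log expression scaling and was 3719 and 2555 with upper-quartile scaling, and under both the 9 genes again gave 1 call higher and 5 lower. The same 5 and the same 1 were the genes whose libraries did not overlap in this comparison, against 25.9% of all genes lower and 27.9% higher. The median log2 difference was -0.32 for the 9 genes and 0.015 for all genes tested. Control values enter this comparison only through the estimate of spread, which all 9 libraries share. Both comparisons with control use the same control values, so those are given side by side only.

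**Figure D2:**
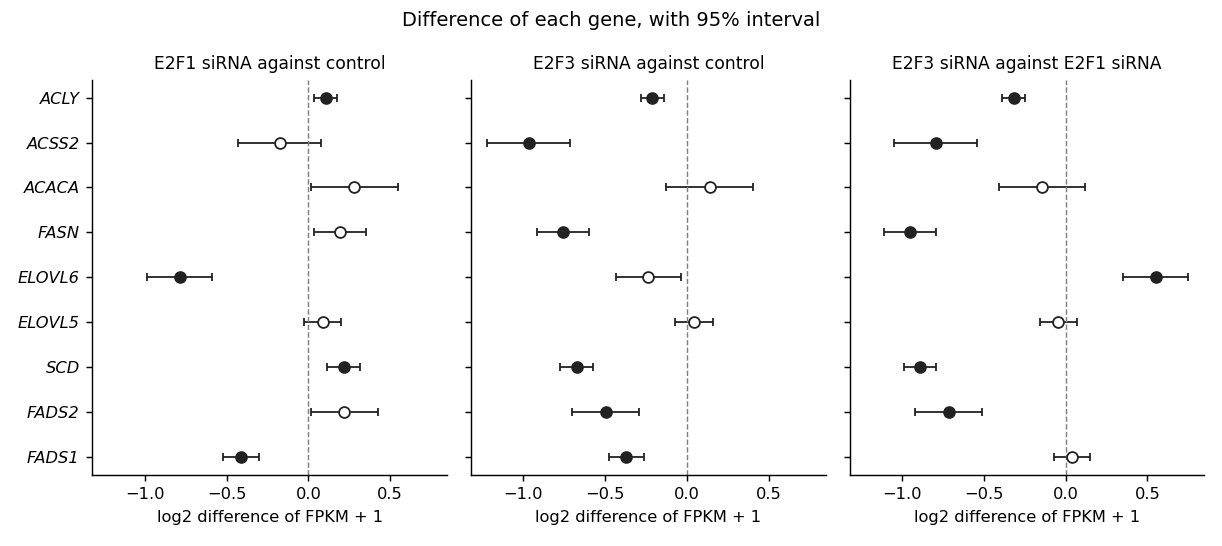
Log2 difference of FPKM + 1 (horizontal axes) for the 9 genes in each of 3 comparisons, with the 95% interval of the limma fit. Filled points passed an adjusted p under 0.05 and open points did not. In all, 6 points are filled on the lower side after E2F3 siRNA, where the largest difference is that of ACSS2 at -0.97, and ELOVL6 is the one filled point on the higher side of the direct comparison, at 0.55.

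The acetyl-CoA suppliers fell together after E2F3 siRNA but by different amounts. ACLY (chr17:41866908-41930542, minus strand, GRCh38 with GENCODE 29 here and for all genes below) stood at 162.02, 165.29 and 162.05 FPKM in control, at 172.88, 175.35 and 178.42 after E2F1 siRNA, and at 141.2, 141.57 and 139.16 after E2F3 siRNA. No 2 groups overlapped, and the spread within each was small. The fall after E2F3 siRNA was 0.862 times the control mean (log2 difference -0.21, SE 0.0312, limma adjusted p = 0.000561), and the E2F3 siRNA libraries lay at 0.801 times the E2F1 siRNA mean (-0.32, adjusted p = 2.99e-05). The rise after E2F1 siRNA was 1.076 times (0.11, limma adjusted p = 0.0239). That call was lost with relative log expression scaling (adjusted p = 0.0655), with upper-quartile scaling (0.109), and without control replicate 1 (0.0767), control replicate 3 (0.0732), E2F1 siRNA replicate 2 (0.0548) or E2F1 siRNA replicate 3 (0.0799). ACLY shares 156 exonic bases, 2.99% of its exons, with the antisense gene AC125257.2, which was listed at 20.78 and 66.6 FPKM in control replicates 1 and 2, at 87.7 in E2F3 siRNA replicate 3 and at 0 in the other 6 libraries, and the strand setting of the counting is not given in the sources used here.

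ACSS2 (chr20:34872146-34927962, plus strand) showed the largest fall of the 9 genes. Its level was 24.32, 22.03 and 24.89 FPKM in control, 20.76, 23.26 and 18.93 with E2F1 siRNA and 10.37, 14.1 and 10.76 with E2F3 siRNA. Every E2F3 siRNA library lay below all 6 others, while control and E2F1 siRNA libraries overlapped. The E2F3 siRNA mean was 0.494 times the control mean (log2 difference -0.97, SE 0.113, limma adjusted p = 0.000134) and 0.560 times the E2F1 siRNA mean (-0.79, adjusted p = 0.000353). After E2F1 siRNA the log2 difference from control was -0.17 (95% interval -0.43 to 0.080, adjusted p = 0.261). The ratio of ACLY to ACSS2 was 6.51 to 7.5 in control, 7.54 to 9.43 after E2F1 siRNA and 10.0 to 13.6 after E2F3 siRNA, with no overlap between groups.

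ACACA and FASN, which act in sequence, did not move alike. ACACA (chr17:37084988-37406818, minus strand) was at 30.37, 32.54 and 35.7 FPKM in control, 41.1, 37.57 and 41.7 with E2F1 siRNA and 30.51, 44.44 and 34.93 with E2F3 siRNA. The E2F1 siRNA libraries lay above all control libraries, and the E2F3 siRNA libraries spread from the bottom of the control range to above every other library. ACACA was called in none of the 3 comparisons: its log2 difference was 0.28 after E2F1 siRNA (95% interval 0.017 to 0.55, limma adjusted p = 0.0886), 0.14 after E2F3 siRNA (-0.13 to 0.40, adjusted p = 0.388) and -0.14 between the siRNAs (-0.41 to 0.12, adjusted p = 0.355). Without E2F3 siRNA replicate 2, the difference after E2F3 siRNA was -0.0065, and ACACA was called lower after E2F3 than after E2F1 siRNA (-0.29, adjusted p = 0.0247). The difference after E2F1 siRNA passed the threshold, at the same size of 0.28, without E2F3 siRNA replicate 2 (adjusted p = 0.0181), without E2F3 siRNA replicate 1 (0.0442) and in a fit of only the 6 libraries compared (0.0157).

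FASN (chr17:82078333-82098332, minus strand) was at 92.36, 92.54 and 100.65 FPKM in control, 104.59, 116.17 and 106.1 with E2F1 siRNA and 50.14, 59.05 and 58.97 with E2F3 siRNA. The 3 groups did not overlap, with E2F3 siRNA far below the other two and E2F1 siRNA just above control. The E2F3 siRNA mean was 0.589 times the control mean (log2 difference -0.76, SE 0.0711, limma adjusted p = 3.49e-05) and 0.514 times the E2F1 siRNA mean (-0.95, adjusted p = 4.93e-06). After E2F1 siRNA the difference was 0.19 (95% interval 0.033 to 0.35), which missed the threshold (adjusted p = 0.0575). It passed without E2F3 siRNA replicate 1 (0.0203), with only the 6 libraries compared (0.0273), with the replicate number as a block (0.0400) and with a filter of 5 FPKM (0.0460).

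The elongases for saturated and polyunsaturated chains differed. ELOVL6 (chr4:110045846-110199199, minus strand) was at 25.85, 22.58 and 29.06 FPKM in control, 14.32, 13.64 and 15.53 with E2F1 siRNA and 22.39, 20.48 and 22.21 with E2F3 siRNA. The E2F1 siRNA libraries were far below all others, and the highest E2F3 siRNA library lay just under the lowest control library. ELOVL6 fell after E2F1 siRNA to 0.561 times the control mean (log2 difference -0.79, SE 0.0887, limma adjusted p = 9.43e-05), the largest difference among the 9 genes in that comparison. It was 1.496 times higher after E2F3 than after E2F1 siRNA (0.55, adjusted p = 0.000735), against the direction of the other genes called there. After E2F3 siRNA the difference from control was -0.24 (95% interval -0.43 to -0.037, adjusted p = 0.0618). It passed the threshold without control replicate 2 (-0.33, adjusted p = 0.0140), with relative log expression scaling (-0.29, 0.0314), with a GC content and length correction (-0.31, 0.0226) and with the replicate block (0.0224).

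ELOVL5 (chr6:53267398-53349179, minus strand) had the smallest log2 differences from control of the 9 genes, after either siRNA. It was at 58.04, 60.98 and 57.77 FPKM in control, 63.33, 62.19 and 62.4 with E2F1 siRNA and 63.42, 56.29 and 62.58 with E2F3 siRNA. Log2 differences from control were 0.087 after E2F1 siRNA (95% interval -0.027 to 0.20, limma adjusted p = 0.212) and 0.042 after E2F3 siRNA (-0.072 to 0.16, adjusted p = 0.551). The direct difference was -0.045 (-0.16 to 0.069, adjusted p = 0.504), and it passed only with the GC content and length correction (-0.11, adjusted p = 0.0483). The ELOVL6 to ELOVL5 ratio was 0.445, 0.370 and 0.503 in control, 0.226, 0.219 and 0.249 with E2F1 siRNA and 0.353, 0.364 and 0.355 with E2F3 siRNA, in 3 ranges that did not overlap.

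SCD (chr10:100347124-100364834, plus strand), the stearoyl-CoA desaturase, had the smallest adjusted p of the 9 genes in the E2F3 siRNA comparisons. Its level was 180.32, 186.71 and 176.15 FPKM in control, 211.43, 213.36 and 206.64 with E2F1 siRNA and 106.34, 117.79 and 115.49 with E2F3 siRNA. The groups were wide apart, with E2F1 siRNA above control and E2F3 siRNA below. SCD fell after E2F3 siRNA to 0.625 times the control mean (log2 difference -0.67, SE 0.0446, limma adjusted p = 3.77e-06) and rose after E2F1 siRNA to 1.162 times (0.22, adjusted p = 0.00376). Between the siRNAs the ratio was 0.538 (-0.89, adjusted p = 4.18e-07). SCD and FASN kept nearly the same proportion in all 9 libraries: their ratio was 1.75 to 2.02 in control, 1.84 to 2.02 after E2F1 siRNA and 1.96 to 2.12 after E2F3 siRNA. FASN to ACACA did not: that ratio was 2.82 to 3.04 in control, 2.54 to 3.09 after E2F1 siRNA and 1.33 to 1.69 after E2F3 siRNA, where every library lay below all others.

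The neighbouring desaturases FADS2 and FADS1 lie on chromosome 11 with starts on opposite strands. FADS2 was called after E2F3 siRNA only, and FADS1 after both siRNAs. FADS2 (chr11:61792980-61867354, plus strand) was at 15.75, 13.42 and 17.4 FPKM in control, 18.13, 19.37 and 17.02 with E2F1 siRNA and 10.14, 10.6 and 11.27 with E2F3 siRNA. Every E2F3 siRNA library lay below all 6 others, and control and E2F1 siRNA overlapped at 17.4 and 17.02. FADS2 fell after E2F3 siRNA to 0.687 times control (log2 difference -0.50, SE 0.0916, limma adjusted p = 0.00223) and was 0.587 times its level after E2F1 siRNA (-0.72, adjusted p = 0.000174). The difference after E2F1 siRNA was 0.22 (95% interval 0.015 to 0.43, adjusted p = 0.0866), and it passed without control replicate 3 (0.30, adjusted p = 0.0315).

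FADS1 (chr11:61799625-61829318, minus strand) was at 97, 93.9 and 89.09 FPKM in control, 71.24, 71.1 and 67.42 with E2F1 siRNA and 70.62, 75.35 and 69.74 with E2F3 siRNA. All 6 siRNA libraries lay below all control libraries and overlapped each other. FADS1 was the only one of the 9 genes called lower in both comparisons with control: to 0.749 times after E2F1 siRNA (log2 difference -0.41, SE 0.0481, limma adjusted p = 0.000121) and to 0.770 times after E2F3 siRNA (-0.37, adjusted p = 0.000256). Both share the control libraries. Between the siRNAs the difference was 0.039 with a 95% interval of -0.068 to 0.15 (adjusted p = 0.537). The FADS1 to FADS2 ratio was 6.16, 7.0 and 5.12 in control, 3.93, 3.67 and 3.96 with E2F1 siRNA and 6.96, 7.11 and 6.19 with E2F3 siRNA, so only the E2F1 siRNA libraries stood apart. In RefSeq the FADS1 start (chromosome 11, base 61817003) lies 800 and 599 bases from the FADS2 starts. The GENCODE exons of the pair share 490 bases, 4.79% of FADS1 and 4.44% of FADS2, so without known strand some fragments cannot be assigned. FADS2 also shares 49 bases, 0.444% of its exons, with FEN1 on the same strand. FEN1 was at 85.36 to 89.62 FPKM in control, 95.07 to 100.56 with E2F1 siRNA and 73.9 to 77.94 with E2F3 siRNA. That is the same order of groups as FADS2 by mean, and the part of this overlap in the FADS2 values was not tested. The pseudogenes SCDP1 and FADS2P1 were listed at 0 in all 9 libraries.

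**Figure D3:**
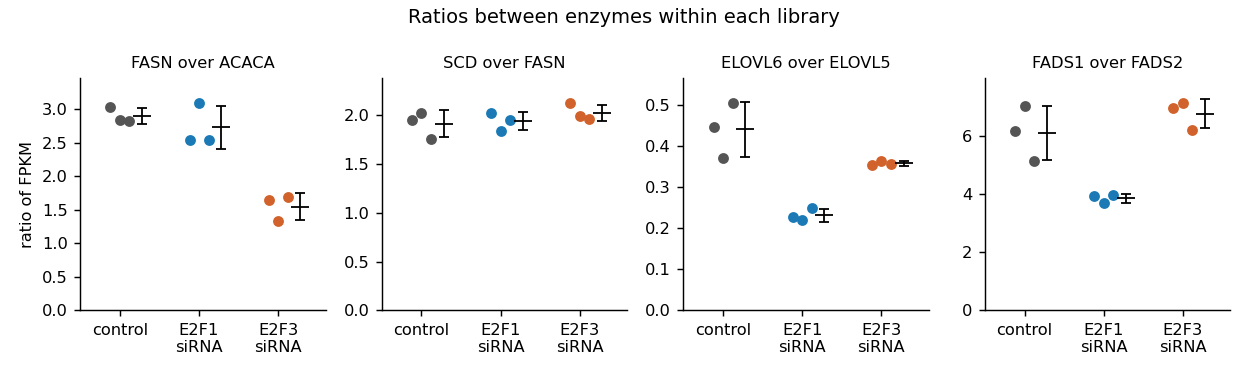
Ratio of FPKM (vertical axes, from 0) between 4 pairs of enzymes in each of 9 libraries, as points, with the mean and SD of each group of 3 as black bars. FASN over ACACA was low only after E2F3 siRNA (1.33 to 1.69), ELOVL6 over ELOVL5 and FADS1 over FADS2 were lowest after E2F1 siRNA (0.219 to 0.249 and 3.67 to 3.96), and SCD over FASN lay between 1.75 and 2.12 throughout.

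The order of the 9 levels shifted with each siRNA. After E2F1 siRNA, SCD (210.5 ± 3.46 FPKM), ACLY (175.6 ± 2.78) and FASN (109.0 ± 6.30) remained at the top with no overlap, and ELOVL6 dropped to last place (14.5 ± 0.957), below ACSS2 and FADS2, which overlapped each other. After E2F3 siRNA, ACLY (140.6 ± 1.30) stood above SCD (113.2 ± 6.06), the reverse of control, with no overlap. FADS1 (71.9 ± 3.02) then came next, and FASN (56.1 ± 5.12) overlapped ELOVL5 (60.8 ± 3.90). The 9 genes summed to 689.6 ± 3.38 FPKM in control, 721.3 ± 9.44 after E2F1 siRNA and 523.3 ± 17.3 after E2F3 siRNA, with no overlap between groups. SCD made up 26.3%, 29.2% and 21.6% of the sum and FASN 13.8%, 15.1% and 10.7%, in that order of groups, while ACLY made up 23.7%, 24.3% and 26.9%.

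SREBF1, which encodes the SREBP-1 factors, moved in opposite directions after the 2 siRNAs. It was at 82.74, 76.94 and 86.42 FPKM in control, 124.19, 123.03 and 104.44 with E2F1 siRNA and 40.52, 55.61 and 44.02 with E2F3 siRNA. The 3 groups did not overlap. SREBF1 rose 1.429 times after E2F1 siRNA (log2 difference 0.51, SE 0.110, limma adjusted p = 0.00502), fell to 0.569 times after E2F3 siRNA (-0.81, adjusted p = 0.000346) and differed by -1.32 between the siRNAs (adjusted p = 1.01e-05). Files with 1 value per gene do not separate its isoforms.

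INSIG1, whose product retains SREBP in the endoplasmic reticulum and which is itself an SREBP target, differed more between the siRNAs than SREBF1, SREBF2, SCAP or any of the 9 genes did. Its level was 48.53, 46.56 and 47.57 FPKM in control, 130.73, 127.16 and 125.87 with E2F1 siRNA and 28.44, 33.86 and 30.96 with E2F3 siRNA. That is a rise of 2.69 times after E2F1 siRNA (log2 difference 1.41, SE 0.0587, limma adjusted p = 2.01e-07), a fall to 0.654 times after E2F3 siRNA (-0.60, adjusted p = 4.35e-05) and a direct difference of -2.01 (adjusted p = 1.57e-08). In the same libraries the log2 differences of FASN, SCD and ACLY after E2F1 siRNA were 0.19, 0.22 and 0.11.

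SREBF2, which encodes SREBP-2, the main driver of cholesterol synthesis genes, was lowest after E2F1 siRNA. It was at 30.8, 33.2 and 29.34 FPKM in control, 19.83, 20.74 and 19.27 with E2F1 siRNA and 24.71, 29.99 and 26.84 with E2F3 siRNA. SREBF2 fell after E2F1 siRNA to 0.641 times (log2 difference -0.62, SE 0.0749, limma adjusted p = 0.000155) and was higher after E2F3 than after E2F1 siRNA (0.42, adjusted p = 0.00127). After E2F3 siRNA it was not called (-0.19, adjusted p = 0.0709), but it passed without E2F3 siRNA replicate 2 (-0.26, adjusted p = 0.0190), with relative log expression scaling (-0.25, 0.0284) and with the replicate block (0.0380). SCAP, the escort protein, was at 21.19 to 22.59 FPKM in control, 21.55 to 27.77 after E2F1 siRNA and 19.58 to 21.22 after E2F3 siRNA, and it was not called against control (0.13, adjusted p = 0.253, and -0.10, adjusted p = 0.389). Its direct difference of -0.23 was called (adjusted p = 0.0484) but lost in 12 of 17 alternatives, among them without each library other than E2F1 siRNA replicate 3 (adjusted p up to 0.136 over all 9).

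**Figure D4:**
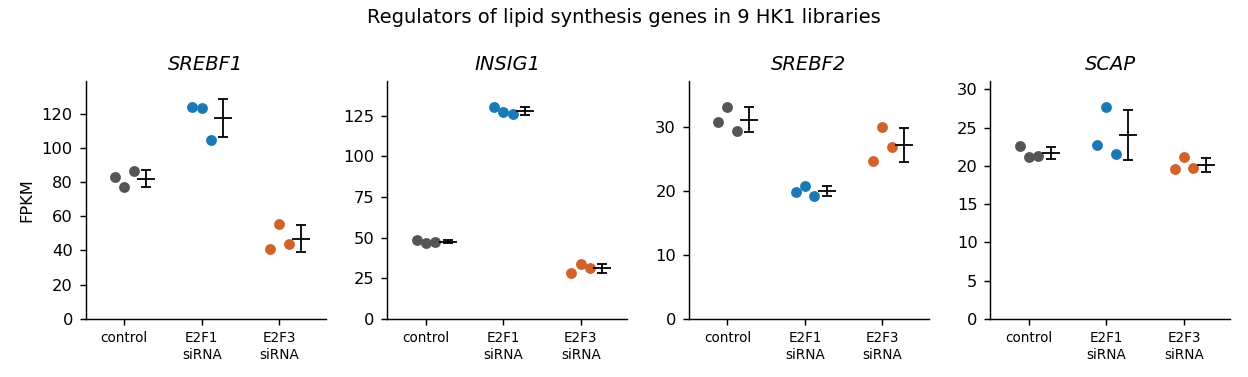
FPKM (vertical axes, from 0) of SREBF1, INSIG1, SREBF2 and SCAP in each of 9 HK1 libraries, as points, with the mean and SD of each group of 3 as black bars. SREBF1 and INSIG1 were highest after E2F1 siRNA (104.44 to 124.19 and 125.87 to 130.73 FPKM) and lowest after E2F3 siRNA, SREBF2 was lowest after E2F1 siRNA (19.27 to 20.74 FPKM), and the SCAP ranges of control and either siRNA overlapped.

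Of all genes tested, 20.5% were called higher and 17.3% lower after E2F1 siRNA. These shares were 21.1% and 16.4% after E2F3 siRNA, and 23.5% and 22.0% between the siRNAs. Counts in this list and in those below are to be read beside these shares, and no list was tested as a set. Over the whole list of 15 tested regulators of lipid synthesis genes, 4 rose and 2 fell after E2F1 siRNA, 0 rose and 5 fell after E2F3 siRNA (limma; 1 was higher at an unadjusted p under 0.05), and 2 were higher and 9 lower between the siRNAs. Besides those above, MID1IP1, whose product activates acetyl-CoA carboxylase, fell after E2F3 siRNA from 27.9 to 16.0 FPKM (log2 difference -0.77, adjusted p = 5.92e-05). MLXIPL fell there from 11.64 to 5.24 FPKM (-1.01, limma adjusted p = 0.00013) and INSIG2 from 10.76 to 6.14 (-0.72, adjusted p = 0.000938). AMPK is the kinase that inhibits acetyl-CoA carboxylase. Of 7 tested genes, 6 for its subunits and STK11 for the kinase that activates it, 1 rose (STK11) and 4 fell (all subunits) after E2F1 siRNA, and 1 rose and 0 fell after E2F3 siRNA (limma; 0 were lower at an unadjusted p under 0.05). Between the siRNAs 5 of these genes were higher and 1 was lower. PRKAG1, a regulatory subunit, fell after E2F1 siRNA from 47.0 to 20.4 FPKM (-1.17, adjusted p = 3.06e-06) and was at 49.8 after E2F3 siRNA. PRKAA1, a catalytic subunit, fell from 29.7 to 15.8 FPKM (-0.88, adjusted p = 4.07e-05) and was at 27.5 after E2F3 siRNA. PRKAA1 was also higher after E2F3 than after E2F1 siRNA (0.77, adjusted p = 7.49e-05).

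Genes that supply citrate, acetyl-CoA and NADPH to the pathway were mixed: of 10 tested, 3 rose and 2 fell after E2F1 siRNA, 3 rose and 4 fell after E2F3 siRNA, and 2 were higher and 5 lower between the siRNAs. ME1, the cytosolic malic enzyme and a source of the NADPH that FASN uses, rose from 16.6 FPKM to 31.6 after E2F1 siRNA (log2 difference 0.89, limma adjusted p = 2.73e-06) and to 24.9 after E2F3 siRNA (0.56, adjusted p = 5.29e-05). SLC25A1, the mitochondrial citrate carrier, fell after E2F3 siRNA from 41.7 to 29.3 FPKM (-0.49, adjusted p = 0.000332) and was at 47.2 after E2F1 siRNA. ACSS1, the mitochondrial relative of ACSS2, fell from 2.49 to 0.997 FPKM after E2F3 siRNA (-0.81, adjusted p = 0.000108).

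Relatives of the 9 genes that lengthen or desaturate chains were called in both directions, with 1 higher and 6 lower of 14 tested after E2F1 siRNA and 3 higher and 5 lower after E2F3 siRNA. Between the siRNAs 6 were higher and 3 lower. SCD5, the second human stearoyl-CoA desaturase, fell after E2F1 siRNA from 21.5 to 12.3 FPKM (log2 difference -0.76, limma adjusted p = 9.82e-06), where SCD rose. After E2F3 siRNA, where SCD fell, SCD5 was at 23.2 FPKM (0.10, adjusted p = 0.207). ELOVL1, an elongase for very long chains, fell after E2F1 siRNA from 72.3 to 46.3 FPKM (-0.63, adjusted p = 1.58e-05), and its rise to 80.9 after E2F3 siRNA (0.16, adjusted p = 0.0392) was lost in 11 of 17 alternatives. ELOVL7 fell after E2F3 siRNA from 8.91 to 1.48 FPKM (-2.0, adjusted p = 8.18e-06), a larger difference than that of any of the 9 genes. FADS3, next to FADS2 on chromosome 11, fell from 87.9 FPKM to 67.9 after E2F1 siRNA (-0.37, adjusted p = 0.000333) and to 44.98 after E2F3 siRNA (-0.95, adjusted p = 9.66e-07).

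The separate fatty acid synthesis system of mitochondria had 2 of 9 genes higher and 0 lower after E2F1 siRNA (limma; 1 was lower at an unadjusted p under 0.05), and 2 higher and 2 lower after E2F3 siRNA. NDUFAB1, its acyl carrier protein, rose from 121.8 FPKM to 156.8 (log2 difference 0.36) and 145.3 (0.25), and CBR4, a reductase subunit, from 8.43 to 13.2 (0.59) and 12.3 (0.49). HSD17B8, the partner of CBR4, fell after E2F3 siRNA from 6.26 to 3.33 FPKM (-0.77, limma adjusted p = 0.00199). The other gene lower there, MCAT (-0.26, adjusted p = 0.0218), lost its call with the GC content and length correction (0.0701) and without control replicate 1 (0.0540), control replicate 3 (0.0820), E2F3 siRNA replicate 2 (0.0578) or E2F3 siRNA replicate 3 (0.0564). Between the siRNAs 1 gene of this list was higher and 3 were lower.

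Downstream of synthesis, 2 of 12 tested genes for fatty acid activation and transport rose and 0 fell after E2F1 siRNA (limma; 0 were lower at an unadjusted p under 0.05), and 2 rose and 5 fell after E2F3 siRNA. Between the siRNAs 1 was higher and 6 were lower. SLC27A5, an acyl-CoA synthetase, was at 15.1 FPKM in control, 20.2 after E2F1 siRNA and 9.05 after E2F3 siRNA (log2 difference -0.69, limma adjusted p = 0.000893). It is 1 of the 2 called higher after E2F1 siRNA (0.39, adjusted p = 0.0180), a call lost with no filter on low values (0.0586) and without control replicate 1 (0.0503), control replicate 2 (0.0571), E2F1 siRNA replicate 1 (0.0570) or E2F1 siRNA replicate 2 (0.0659). In glycerolipid synthesis 2 of 16 rose and 3 fell after E2F1 siRNA, 4 rose and 5 fell after E2F3 siRNA, and 4 were higher and 2 lower between the siRNAs. AGPAT1, which makes phosphatidic acid, fell after both (-0.89, adjusted p = 6.45e-06, and -0.44, adjusted p = 0.000628), and LPIN1, a phosphatidate phosphatase, rose after both (0.32, adjusted p = 0.00159, and 0.37, adjusted p = 0.000735). Among lipases and acyltransferases of this list, PNPLA3 fell after E2F3 siRNA from 9.91 to 6.16 FPKM (-0.61, adjusted p = 0.00311).

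Mitochondrial oxidation of fatty acids, the opposing route, had 2 of 17 genes higher and 5 lower after E2F1 siRNA, 6 higher and 2 lower after E2F3 siRNA, and 7 higher and 1 lower between the siRNAs. Its median log2 difference between the siRNAs was 0.12, beside -0.32 for the 9 synthesis genes and 0.015 for all genes tested. Shares of all genes called higher and lower were 20.5% and 17.3% after E2F1 siRNA. They were 21.1% and 16.4% after E2F3 siRNA, and 23.5% and 22.0% between the siRNAs. CPT2, which re-forms acyl-CoA inside mitochondria, fell after E2F1 siRNA from 24.3 to 16.2 FPKM (log2 difference -0.55, limma adjusted p = 7.59e-05) and was at 26.6 after E2F3 siRNA. HADH, a dehydrogenase of the cycle, fell after E2F1 siRNA (-0.25, adjusted p = 0.00325) and rose after E2F3 siRNA (0.28, adjusted p = 0.00212). ACADS, the short-chain dehydrogenase, was the exception between the siRNAs, being lower after E2F3 siRNA (-0.68, adjusted p = 7.19e-05).

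In the list for cholesterol synthesis and uptake, which shares the SREBP system, 5 of 23 genes rose and 2 fell after E2F1 siRNA, 1 rose and 9 fell after E2F3 siRNA, and 3 were higher and 12 lower between the siRNAs. INSIG1, already counted among the regulators, is in this list too and was called in each comparison. LSS fell after E2F3 siRNA from 20.1 to 8.19 FPKM (log2 difference -1.20, limma adjusted p = 9.56e-06), and MSMO1 fell more after E2F1 siRNA (-0.80, adjusted p = 5.21e-06) than after E2F3 siRNA (-0.25, adjusted p = 0.00761), the direct difference being 0.56 (adjusted p = 4.01e-05).

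**Figure D5:**
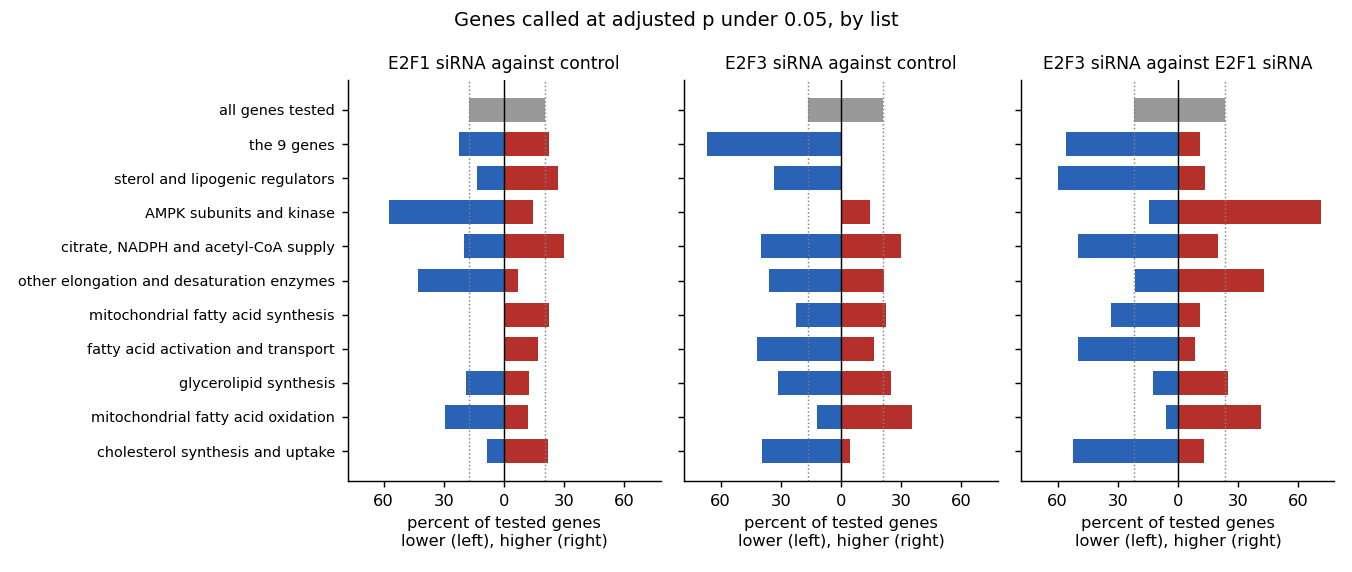
Percent of the tested genes of each list called higher (bars to the right) or lower (bars to the left) at an adjusted p under 0.05 in each of 3 comparisons, with all genes tested in grey and as dotted lines. The 9 genes have 6 of 9 on the lower side and 0 on the higher side after E2F3 siRNA, against 16.4% and 21.1% of all genes, and 2 of 9 on each side after E2F1 siRNA, against 17.3% and 20.5%.

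For each gene, the other gene whose log2(FPKM + 1) over the 9 libraries had the highest Pearson r with it was looked up. Candidates were tested protein-coding genes with a mean of at least 5 FPKM and a name that is not a clone name. These r are descriptions over 9 libraries in 3 groups, picked as the highest among all such genes, and carry no test. FASN was most like NUDT14 (r = 0.995), SCD most like SPTLC1 (0.996), a subunit of serine palmitoyltransferase, and ACLY most like PSME3 (0.997). ACSS2 was most like TRAF7 (0.995) and FADS2 most like FDXR (0.985). SPTLC1, for example, was at 58.85, 59.73 and 59.95 FPKM in control, 71.42, 70.29 and 71.37 with E2F1 siRNA and 25.01, 30.91 and 29.04 with E2F3 siRNA, the same order of groups as SCD with a deeper fall. ELOVL6 was most like ATG4D (0.980) and FADS1 most like IFITM2 (0.985). The genes that were called least had the weakest likeness, ELOVL5 with MMS22L (0.958) and ACACA with NENF (0.904). MMS22L, like ELOVL5, had its lowest value in E2F3 siRNA replicate 2, at 15.27 FPKM against 23.47 and 22.06 in the other 2 libraries of that group. Without that replicate, 6 of the 9 genes were again called lower after E2F3 siRNA.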

How the data were processed

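RNA of 9 HK1 libraries was extracted with a mirVana kit and sequenced by Illumina protocols, per the labels' protocols. Trimmomatic, TopHat, HISAT2, HTSeq and DESeq and build GRCh38 are named in the submitters' processing notes; neither versions, roles nor strand setting is given in the sources used here. The authors deposited FPKM per gene, to 2 decimals, per the file headers. FPKM scale each library to its own total, so a change is relative to the other genes and read counts are not used. Each file held 59107 entries with a value. Entries without an Ensembl identifier (726) were left out, and 58216 of 58381 identifiers were named from GENCODE 29. Genes reaching 1 FPKM in 3 or more libraries were tested with limma 3.58.1 (R 4.3.3; trend) on log2(FPKM + 1), 1 fit over 3 groups, two-sided, Benjamini-Hochberg over 13777 genes, threshold 0.05. The added constant understates differences of low genes. The fit was tested on simulated data. P-values measure the spread between these libraries, which may be technical. Depth was estimated from steps of 2757 single-exon genes, where 86.9% to 94.3% of low values per library lay within 0.25 of whole steps; no count test was run. No 2 libraries shared more than 0.415% of values above 1 FPKM. The text names the 9 genes, SREBF1, SREBF2, SCAP, INSIG1, the siRNA targets, up to 2 called genes per other list and comparison with the smallest adjusted p, and the gene most alike by Pearson r; not all are described, and 1 result under this rule is not reported here. AC125257.2, FEN1 and the pseudogenes were added because they overlap or copy members, and ADIPOQ, CIDEA, APOB and TTR as markers at 0. STK11, MLXIPL, INSIG2 and the other markers were named after their values were seen. The genes and lists were chosen with earlier results of these data known. Alternatives were another constant, filters, scalings, fewer libraries, a replicate block, a GC content and length correction, and a threshold of 0.01.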

Additional observations from a re-analysis of the deposited data

How the results depend on the processing

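Over 17 alternatives for each of the 9 genes in each of 3 comparisons, 439 of 459 values kept their side of the threshold, 6 lost the call (all ACLY after E2F1 siRNA) and 14 gained one. No called value changed sign. Values that were not called changed sign near 0 under some alternatives, for ACACA and ELOVL5 after E2F3 siRNA (to -0.0065 and -0.013) and for ELOVL5 and FADS1 between the siRNAs (to 0.0082 and -0.050). All 6 calls after E2F3 siRNA, all 6 between the siRNAs, and those of SCD, ELOVL6 and FADS1 after E2F1 siRNA held in all 17. The 9 genes gave 3 to 6 calls after E2F1 siRNA, 6 to 7 after E2F3 siRNA and 6 to 7 between the siRNAs when each library was left out in turn. Of 1827 values of other named genes, 46 lost a call and 21 gained one. Over all genes, calls after E2F3 siRNA were 5179, and 3244 at an adjusted p under 0.01, where the same threshold also left 6 of the 9 genes called.

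Deviations of same-numbered libraries from their group means had correlations of -0.106 to -0.005 between control and either siRNA, and of 0.029 to 0.112 between the siRNAs. Between the siRNAs every library correlated best with its own number, and between control and either siRNA none did. The labels do not say that a number is a shared culture or day, so the numbers were not taken to pair libraries in the main fit. With the replicate block 5 of the 9 genes were called after E2F1 siRNA, 7 after E2F3 siRNA and 6 between the siRNAs, and over all genes 4936, 4871 and 5982, against 5210, 5179 and 6274 without it. The deposited values carry no counts, so no counting interval stands beside a level, and the added constant understates differences of genes at 1 to 3 FPKM, such as PRKAA2 and ACSS1.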
